A study of Mus musculus with 3 samples.

Results

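The expression of 10 genes of sugar uptake and glycolysis was followed in mouse embryonic stem (ES) cells with and without Pcgf1, a Polycomb group RING finger protein of the variant Polycomb repressive complex PRC1.1. The genes were taken by name: the glucose transporters Slc2a1 and Slc2a3, the hexokinases Hk1 and Hk2, the phosphofructokinases Pfkl and Pfkp, the enolase Eno1, the pyruvate kinase Pkm, the lactate dehydrogenase Ldha, and the pyruvate dehydrogenase kinase Pdk1. In the deposited transcript lists, 9 of the 10 stood under their own name in all 3 samples, among 25350 such genes in all. Slc2a3 shared a joined name with a neighbour in one sample and is described apart.

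Glucose enters a cell through transporters of the Slc2a family and is trapped there by hexokinase as glucose 6-phosphate. Phosphofructokinase carries out the committing and most regulated step of glycolysis, enolase and pyruvate kinase complete the path to pyruvate, and lactate dehydrogenase turns pyruvate into lactate. Pyruvate dehydrogenase kinase blocks the alternative route, the entry of pyruvate into the mitochondrial tricarboxylic acid (TCA) cycle. Pluripotent stem cells are known for a high rate of glycolysis, and most of these genes are textbook targets of the hypoxia-inducible factors and of Myc.

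RNA was sequenced from 1 sample each of wild-type (WT) ES cells, of ES cells with Pcgf1 disrupted by Cas9 (Pcgf1KO, here Pcgf1-/-) and of Pcgf1-/- cells that had received FLAG-tagged Pcgf1 by lentivirus (Pcgf1KO+ Pcgf1_flag, here Pcgf1-/-+Pcgf1). All 3 carry the strain label C57BL/6 and were grown with serum and leukemia inhibitory factor on fibroblast feeders inactivated with mitomycin-C. The guides were directed at exons 2 and 3 to shift the reading frame, lines were picked as single colonies, and cells given the virus were selected with puromycin. With 1 sample per group no difference has a replicate check, no test between groups can be made, and a line cannot be told apart from its genotype. Values are FPKM (fragments scaled to transcript length and library size), a level per length, and a fold or log2 ratio is a difference taken on FPKM + 0.1.

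The labels were checked first. Pcgf1 itself was at 13.95 FPKM in WT, 5.88 in Pcgf1-/- cells and 7.86 in Pcgf1-/-+Pcgf1, so its RNA was lower in Pcgf1-/- and stayed below WT in the cells given the virus. A frameshift need not lower the RNA, and whether reads of the viral copy enter this value is not known. The ES cell marker Pou5f1 was at 670 FPKM in WT, 518 in Pcgf1-/- cells and 626 in Pcgf1-/-+Pcgf1. Of 8 ES cell markers, 6 had a name of their own in all samples. In Pcgf1-/- against WT, 4 of these 6 were higher and 2, Pou5f1 among them, lower. Of 14 fibroblast markers, 12 had a name of their own in all samples, and their summed level was 133 FPKM in WT, 87.7 in Pcgf1-/- cells and 99.4 in Pcgf1-/-+Pcgf1. Fn1, which encodes fibronectin, made up 110, 75.7 and 74.9 FPKM of these sums. The collagen gene Col1a1 was at 1.88, 0.390 and 2.21 FPKM in the same order, and Postn and Fap were at 0 in all 3. Thy1, a surface protein that is not restricted to fibroblasts, was at 14.2, 6.39 and 13.5 FPKM, and Col1a2, Col6a1, Fbln2 and Pdgfrb did not exceed 3.04 FPKM in any sample. Dcn (decorin) went the other way, at 0.352, 0.779 and 1.18 FPKM, and Col5a1 was at 2.54, 2.55 and 3.10 FPKM. Of the 10 fibroblast markers above 0, 8 were lower in Pcgf1-/- than in WT, 5 of them by over 2-fold, where 9.41% of all genes above 0 were past 2-fold lower, and 2 were higher. The part of feeder cells in the values below was not tested. In bulk RNA, fewer cells of a type and less RNA per cell cannot be told apart.

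Taken over the 9 genes, no member differed by more than 2-fold in FPKM in any comparison. Between Pcgf1-/- and WT, 8 of 9 were higher in Pcgf1-/-, with a median log2 ratio of 0.21 and a range from -0.13 to 0.82. The median of the 5875 genes at 5 FPKM or more in every sample was -0.06. The background share past 2-fold was 13.5% of 13424 genes above 0 in 1 or both samples, or 4.9% of 6720 genes at 5 FPKM or more in 1 or both. Slc2a1, Pfkp and Pdk1 were past 1.5-fold, all higher in Pcgf1-/-. That is 3 of 9 members, where 5.71% of the 6720 genes were past 1.5-fold higher and 9.17% past 1.5-fold lower. On last exons alone, which gave a value for 7 members, 5 were higher and 2 of 7 were past 1.5-fold, as Pdk1 was at a log2 ratio of -0.16. The lists give Slc2a1 and Pdk1 last exons of unequal length in different samples, and FPKM times the listed length, described with each gene, put Slc2a1 in Pcgf1-/- at 1.04-fold of WT and Pdk1 in Pcgf1-/-+Pcgf1 at 0.333-fold of WT, which is past 2-fold.

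Between Pcgf1-/-+Pcgf1 and Pcgf1-/-, 8 of 9 members were lower in Pcgf1-/-+Pcgf1 (9 of 9 under median-of-ratios scaling, which sets samples on the median gene), with a median log2 ratio of -0.28 against -0.05 over the 5875 genes. Slc2a1 and Pfkp were lower by more than 1.5-fold. On last exons alone 6 of 7 were lower, and Pdk1 was higher (log2 ratio 0.48). In this comparison 15.9% of the genes above 0 and 6.26% of those at 5 FPKM or more were past 2-fold, and 8.91% were past 1.5-fold lower and 6.92% past 1.5-fold higher. Both comparisons use the same Pcgf1-/- sample, so that a chance high value in it makes a member appear higher in the first and lower in the second. Between Pcgf1-/-+Pcgf1 and WT, 3 of 9 members were higher and 6 lower (5 and 4 under median-of-ratios scaling), the median log2 ratio was -0.05 (0.03 under that scaling) against -0.12 over the 5875 genes, and no member passed 1.5-fold in FPKM. The matching shares over all genes were 11.6% and 3.4% past 2-fold, 3.69% past 1.5-fold higher and 7.66% past 1.5-fold lower.

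**Figure D1:**
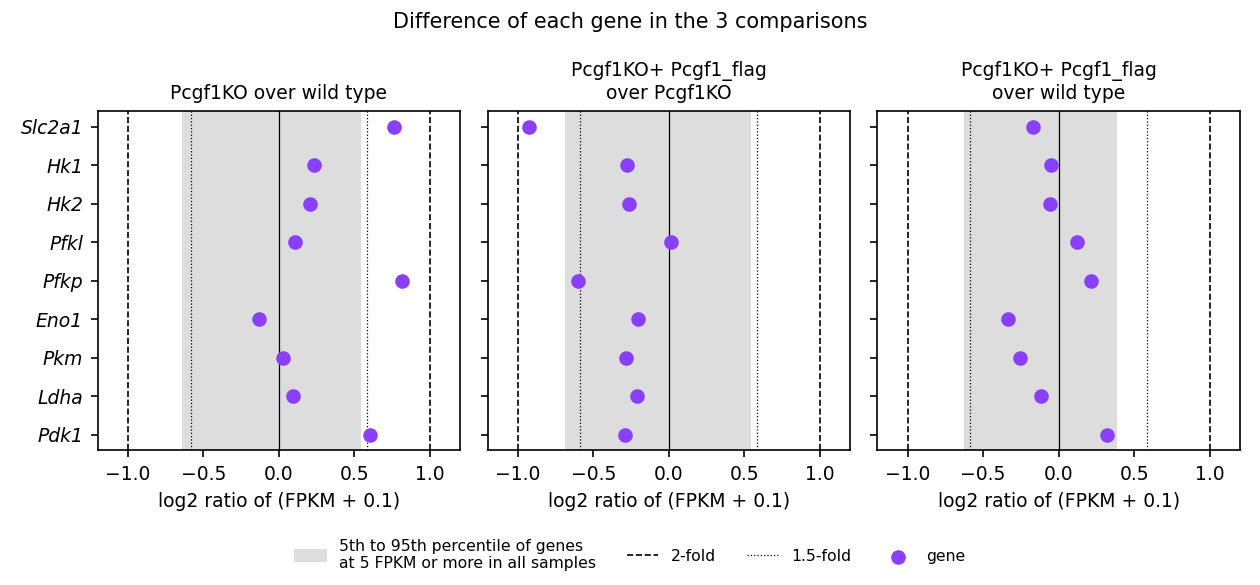
Log2 ratio of (FPKM + 0.1) of each of the 9 genes in the 3 comparisons, 1 sample per group; the grey band spans the 5th to 95th percentile of the 5875 genes at 5 FPKM or more in every sample. Slc2a1, Pfkp and Pdk1 lie above the band in Pcgf1KO over wild type, Slc2a1 lies below it in Pcgf1KO+ Pcgf1_flag over Pcgf1KO, and no gene lies outside it in Pcgf1KO+ Pcgf1_flag over wild type.

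The levels of the 10 genes spanned a wide range. In WT the highest was Pkm at 1808 FPKM and the lowest Hk1 at 12.6 FPKM. The order was Pkm, Eno1, Ldha, Slc2a1, Slc2a3, Pfkl, Hk2, Pdk1, Pfkp, Hk1 in each of the 3 samples, so all 45 pairs of genes kept their order. The ranges over the 3 samples overlapped for 2 of these pairs, Eno1 with Pkm and Hk2 with Pdk1. The enzymes of the lower, energy-yielding part of the pathway therefore stood far above the kinases of its upper part on the FPKM scale.

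**Figure D2:**
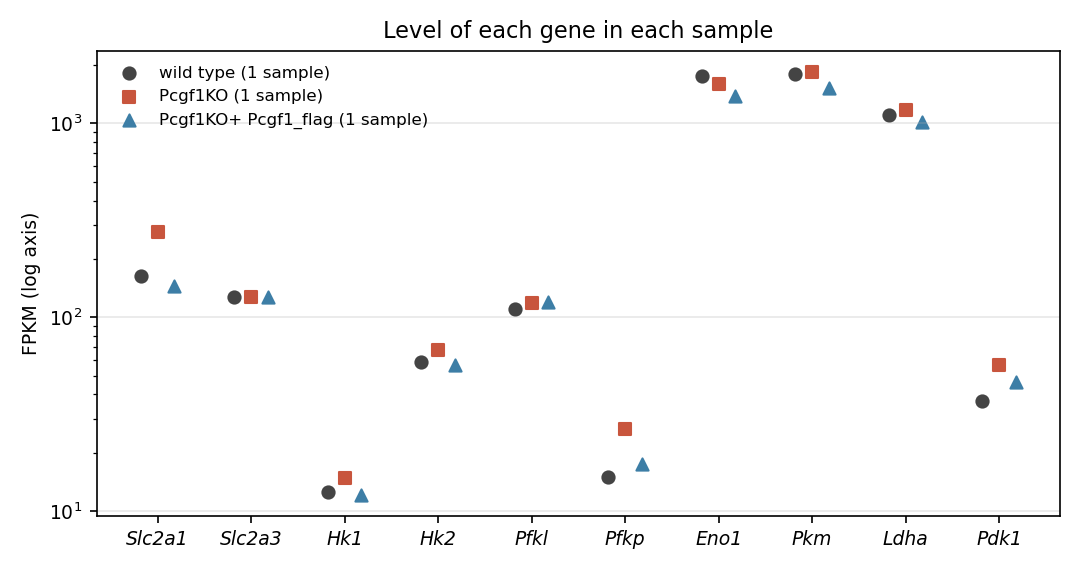
FPKM of the 10 genes on a log axis, 1 point per sample, with Slc2a3 shown by its locus. Pkm, Eno1 and Ldha lie highest in every sample (1017 FPKM or more), Hk1 lies lowest, and the Pcgf1KO point stands clear of both others for Slc2a1 and Pfkp.

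Slc2a1 encodes GLUT1, the transporter of basal glucose uptake in most cells. It lies on chromosome 4 of mm10 (chr4:119108711-119137983, plus strand). Its level was 163 FPKM in WT, 277 in Pcgf1-/- cells and 145 in Pcgf1-/-+Pcgf1. Pcgf1-/- was the highest sample, 1.69-fold above WT (log2 ratio 0.76) and 1.90-fold above Pcgf1-/-+Pcgf1. Of the 5875 genes at 5 FPKM or more in every sample, 97.8% had a smaller log2 ratio of Pcgf1-/- to WT.

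The higher Slc2a1 level in Pcgf1-/- was spread over 2 transcript forms that differ by exon 5 of 10. The form with this exon was at 163 FPKM in WT, 216 in Pcgf1-/- cells and 145 in Pcgf1-/-+Pcgf1. The form without it was listed at 0 in WT and in Pcgf1-/-+Pcgf1 and at 61.0 FPKM in Pcgf1-/-, where it made up 22.1% of the gene. Of the difference of Pcgf1-/- over WT, 52.3 FPKM lay in the form with the exon, a fold of 1.32, and 61.0 FPKM in the form without it. The exon is coding over all of its 163 bases, a number that is no multiple of 3, and the GENCODE transcript that lacks it is annotated as a target of nonsense-mediated decay, the pathway that degrades messages with an early stop. Skipping of this kind was not frequent: among 2414 exons included at 5 FPKM or more in both samples, 3.73% were skipped in 10% or more of the FPKM in Pcgf1-/- and not at all in WT, and 2.9% showed the reverse.

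The ends of the Slc2a1 transcripts also differed between the lists, and this bears on a value per length. The last exon was listed with 1738 bases in WT, 476 in Pcgf1-/- cells and 873 in Pcgf1-/-+Pcgf1. With a transcript of 3260 bases shortened accordingly, FPKM times kilobases came to 532 in WT, 553 in Pcgf1-/- cells and 348 in Pcgf1-/-+Pcgf1. On that scale Pcgf1-/- was 1.04-fold of WT, and Pcgf1-/-+Pcgf1 0.630-fold of Pcgf1-/- and 0.654-fold of WT. Whether the listed ends are the lengths that entered the FPKM is not given in the sources used here. Over the 4680 genes with 1 last exon above 0 that was shared by the lists of WT and Pcgf1-/-, a last exon listed with under 0.5 of its WT bases in Pcgf1-/- was found for 164. Of these, 12.2% were past 1.5-fold higher in Pcgf1-/-, against 4.03% of the 3897 genes with a last exon of the same length. Past 1.5-fold lower were 5.49% and 5.31%, and the median log2 ratios were -0.0009 and -0.059. The part of the listed length in the Slc2a1 difference was not tested.

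Transcription of Slc2a1 started in WT and Pcgf1-/- at the annotated first exon (chr4:119108711-119108972) throughout. In Pcgf1-/-+Pcgf1 this first exon was at 79.0 FPKM, and a further first exon of 56 bases, which starts 2603 bases upstream and is not in GENCODE, was at 66.3 FPKM, or 45.6% of the gene. The second transporter did not follow. Slc2a3, which encodes GLUT3, a transporter of high affinity (chr6:122727809-122801640, minus strand), was listed with the antisense gene Gm26826 in WT. The joined locus was at 128 FPKM in WT, and Slc2a3 under its own name was at 127 FPKM in Pcgf1-/- and at 127 in Pcgf1-/-+Pcgf1. The highest of these 3 values was 0.480% above the lowest. Within the locus the first exon of the main coding transcript was at 68.1, 81.0 and 70.0 FPKM in WT, Pcgf1-/- and Pcgf1-/-+Pcgf1 cells. A first exon further upstream was at 59.4, 46.4 and 56.9 FPKM. It was listed with 2 bases in WT and Pcgf1-/- and with 41 in Pcgf1-/-+Pcgf1. GENCODE gives its splice donor to a target of nonsense-mediated decay with 4 exons and 315 bases. The 1 last exon listed for the locus, of 2332 bases, carried the level of the locus in each sample. Which transcript the upstream first exon belongs to was not determined. As a share of both transporters together, Slc2a1 made up 56.1% in WT, 68.5% in Pcgf1-/- cells and 53.4% in Pcgf1-/-+Pcgf1.

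**Figure D3:**
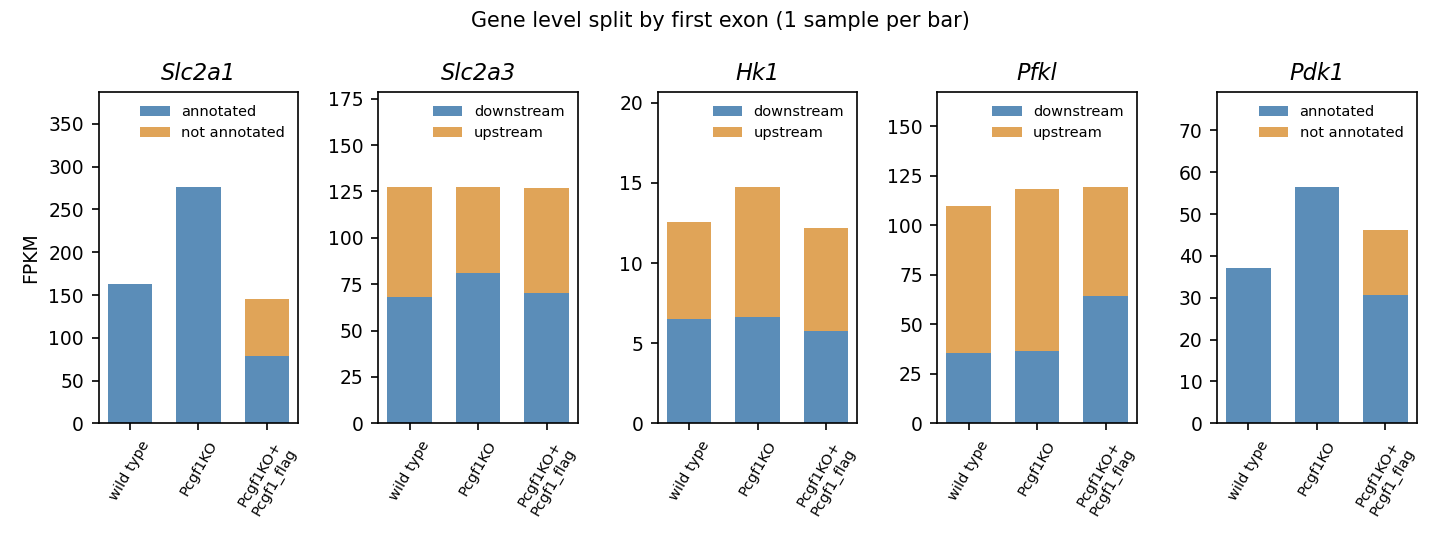
FPKM of the 5 genes with 2 first exons above 0, stacked by first exon, either annotated or not or, where both are annotated, by their order along the gene; each bar is 1 sample. First exons that are not annotated appear in Slc2a1 (66.3 FPKM) and Pdk1 (15.5 FPKM) in Pcgf1KO+ Pcgf1_flag alone, and in Pfkl the 2 first exons change places as the larger one in the same sample.

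Both hexokinases were close in the 3 samples. Hk2, the inducible form (chr6:82725025-82774454, minus strand), was at 58.6 FPKM in WT, 67.7 in Pcgf1-/- cells and 56.4 in Pcgf1-/-+Pcgf1. Hk1, the form found in most tissues (chr10:62268855-62379908, minus strand), was at 12.6, 14.8 and 12.2 FPKM. Pcgf1-/- was the highest sample for both, 1.16-fold above WT for Hk2 and 1.17-fold for Hk1. Hk2 stood 4.66-fold above Hk1 in WT, 4.58-fold in Pcgf1-/- cells and 4.64-fold in Pcgf1-/-+Pcgf1, so the balance of the hexokinases hardly moved. Of the 9 first exons listed for Hk1, 2 were above 0. The downstream one (chr10:62318265-62318393) was at 6.53 FPKM in WT, 6.63 in Pcgf1-/- cells and 5.74 in Pcgf1-/-+Pcgf1, and the upstream one (chr10:62340013-62340542) at 6.04, 8.14 and 6.43 FPKM. The first exon at the upstream end of the gene (chr10:62379815-62379908) was listed at 0 in all 3. The last exon of Hk2 was listed at 0 in every sample, so its level rests on its first exon (chr6:82773918-82774454).

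The phosphofructokinases differed from one another. Pfkl, the liver-type subunit (chr10:77986947-78010083, minus strand), was at 109.8 FPKM in WT, 118 in Pcgf1-/- cells and 119.6 in Pcgf1-/-+Pcgf1, a factor of 1.09 from lowest to highest. Pfkp, the platelet-type subunit (chr13:6579768-6648777, minus strand), was at 14.9, 26.4 and 17.4 FPKM. Pcgf1-/- was 1.76-fold above WT (log2 ratio 0.82) and 1.51-fold above Pcgf1-/-+Pcgf1, the highest log2 ratio to WT of the 9 genes. Of the 5875 genes, 98.1% had a smaller one. Pfkl made up 88.0% of both together in WT, 81.8% in Pcgf1-/- cells and 87.3% in Pcgf1-/-+Pcgf1.

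Pfkp was carried by 1 splice choice in WT and Pcgf1-/-+Pcgf1, and only in part by the same choice in Pcgf1-/-. GENCODE holds coding transcripts with 22 exons each in which exon 16 is one of 2 alternatives, the upstream chr13:6597859-6598011 or the downstream chr13:6593101-6593253. The splice that joins the upstream alternative to exon 17 and passes over the downstream one carried 14.9 FPKM in WT and 17.4 in Pcgf1-/-+Pcgf1, which is the whole gene in both. In Pcgf1-/- it carried 14.0 FPKM, close to WT, and the other 12.4 FPKM, or 46.9% of the gene, lay in transcripts without this splice. The lists have no event for the exchange of one exon for another, so whether the remainder holds the downstream alternative was not determined. Both alternatives have 153 bases, all coding and a multiple of 3, and 90 of these (58.8%) are the same base at the same place. They are shown side by side, with the shared bases in capitals.
Pfkp upstream exon 16: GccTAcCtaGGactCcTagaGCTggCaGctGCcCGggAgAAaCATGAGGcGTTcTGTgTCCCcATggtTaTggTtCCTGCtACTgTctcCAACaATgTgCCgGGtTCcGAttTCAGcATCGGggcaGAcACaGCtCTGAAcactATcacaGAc
Pfkp downstream exon 16: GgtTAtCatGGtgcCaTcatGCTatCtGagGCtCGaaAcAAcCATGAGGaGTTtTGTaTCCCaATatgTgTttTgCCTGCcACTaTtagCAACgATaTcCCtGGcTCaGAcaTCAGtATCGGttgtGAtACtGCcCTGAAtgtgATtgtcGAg

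Pfkl differed between samples in its first exons more than in its level. The downstream first exon (chr10:78009599-78009807) was at 35.6 FPKM in WT and 36.7 in Pcgf1-/-, and at 64.5 in Pcgf1-/-+Pcgf1. The upstream one (chr10:78010005-78010083) was at 74.2, 81.6 and 55.1 FPKM. The upstream first exon was thus the larger one in WT (67.6% of the gene) and Pcgf1-/- (69.0%) and the smaller one in Pcgf1-/-+Pcgf1 (46.0%). GENCODE gives the upstream one to a transcript of 5 exons and 583 bases. The downstream one belongs, among others, to a transcript of 22 exons and 3730 bases. As FPKM is a level per length, the shares and their sum depend on the lengths used, which are not given. A last exon of Pfkl was above 0 in Pcgf1-/-+Pcgf1 alone, at 86.7 FPKM, so the comparisons of Pfkl rest on its first exons.

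Eno1, Pkm and Ldha, the 3 most abundant genes, were within 1.1-fold of WT in Pcgf1-/- and lower than WT in Pcgf1-/-+Pcgf1. Eno1 (chr4:150236721-150248879, plus strand) was at 1756 FPKM in WT, 1606 in Pcgf1-/- cells and 1393 in Pcgf1-/-+Pcgf1, and was the one member lower in Pcgf1-/- than in WT (log2 ratio -0.13). Pkm (chr9:59656368-59679375, plus strand) was at 1808, 1846 and 1517 FPKM, with a log2 ratio of 0.03 between Pcgf1-/- and WT. Ldha (chr7:46841475-46855627, plus strand) was at 1102, 1175 and 1017 FPKM, with a log2 ratio of 0.09. In Pcgf1-/-+Pcgf1 against WT the log2 ratios were -0.33 for Eno1, -0.25 for Pkm and -0.12 for Ldha. Each of the 3 used 1 first exon in all samples. The lists hold no internal event for Pkm, so the choice between the exons of the M1 and M2 forms of pyruvate kinase was not analysed here. These genes have near-identical copies in the genome, mostly pseudogenes, and how reads shared with them were assigned is not known.

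Pdk1 encodes a kinase that inactivates pyruvate dehydrogenase (chr2:71873224-71903858, plus strand). It was at 37.1 FPKM in WT, 56.5 in Pcgf1-/- cells and 46.3 in Pcgf1-/-+Pcgf1. Pcgf1-/- was 1.52-fold above WT (log2 ratio 0.61), and Pcgf1-/-+Pcgf1 lay between the others in FPKM, 1.25-fold above WT. The sum of its last exons gave another order, with 37.1 FPKM in WT, 33.2 in Pcgf1-/- cells and 46.3 in Pcgf1-/-+Pcgf1. In Pcgf1-/-, 23.4 FPKM, or 41.3% of the gene, had the first exon but no listed last exon, and on last exons alone Pcgf1-/- was below WT (log2 ratio -0.16).

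The higher Pdk1 level in Pcgf1-/- lay in one of 2 forms. The main coding transcript has 11 exons, and a GENCODE transcript annotated without a coding region lacks its exons 2 and 7. The form with exon 7 was at 17.2 FPKM in WT, 35.8 in Pcgf1-/- cells and 25.0 in Pcgf1-/-+Pcgf1. The form without it was at 19.9, 20.7 and 21.3 FPKM, close in the 3 samples, and the list gave the same values for skipping of exon 2. The form with exon 7 was therefore 2.08-fold higher in Pcgf1-/- than in WT, the other 1.04-fold, and 95.8% of the difference lay in the first. The splice from the end of exon 2 to the next exon was at 17.2, 35.8 and 25.0 FPKM. These are the values of the form with exon 7. Exon 2 joined to the annotated first exon was at 17.2 FPKM in WT, 35.8 in Pcgf1-/- cells and 9.43 in Pcgf1-/-+Pcgf1. The last value was 0.551-fold of WT. In Pcgf1-/-+Pcgf1 a first exon that is not in GENCODE carried a further 15.5 FPKM. Of 2829 exon-included values at 5 FPKM or more in 1 or both samples, 3.75% were past 2-fold higher in Pcgf1-/-. Such values depend on how the assembly divided reads between forms. Exon 2 (chr2:71875406-71875547) has 142 bases and exon 7 (chr2:71887382-71887458) has 77, all coding, and neither number is a multiple of 3. Together they hold 219 bases, a multiple of 3, but the exons are not adjacent. What their skipping does to the protein was not derived. Their sequences are shown because they separate the form that was higher from the one that was not.
Pdk1 exon 2: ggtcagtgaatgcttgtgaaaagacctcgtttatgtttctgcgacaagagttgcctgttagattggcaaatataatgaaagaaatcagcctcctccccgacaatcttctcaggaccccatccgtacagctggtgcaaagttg
Pdk1 exon 7: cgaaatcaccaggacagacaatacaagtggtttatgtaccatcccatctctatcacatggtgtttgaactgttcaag

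In Pcgf1-/-+Pcgf1 the ends of Pdk1 were listed differently. A first exon of 91 bases, 4712 bases upstream of the annotated one and not in GENCODE, carried 15.5 FPKM, or 33.5% of the gene, and the annotated first exon 30.8 FPKM. The last exon was listed with 76 bases, against 3875 in both WT and Pcgf1-/-. With a transcript of 5185 bases shortened accordingly, as for Slc2a1, FPKM times kilobases came to 192 in WT and 64.1 in Pcgf1-/-+Pcgf1, which put Pcgf1-/-+Pcgf1 at 0.333-fold of WT, below it and not above. In Pcgf1-/- the 41.3% of the gene with no listed last exon has no listed length. With the last exon of 3875 bases assumed for all of it, Pcgf1-/- came to 293, and Pcgf1-/-+Pcgf1 to 0.219-fold of it. The part of the listed length in the Pdk1 differences was not tested.

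**Figure D4:**
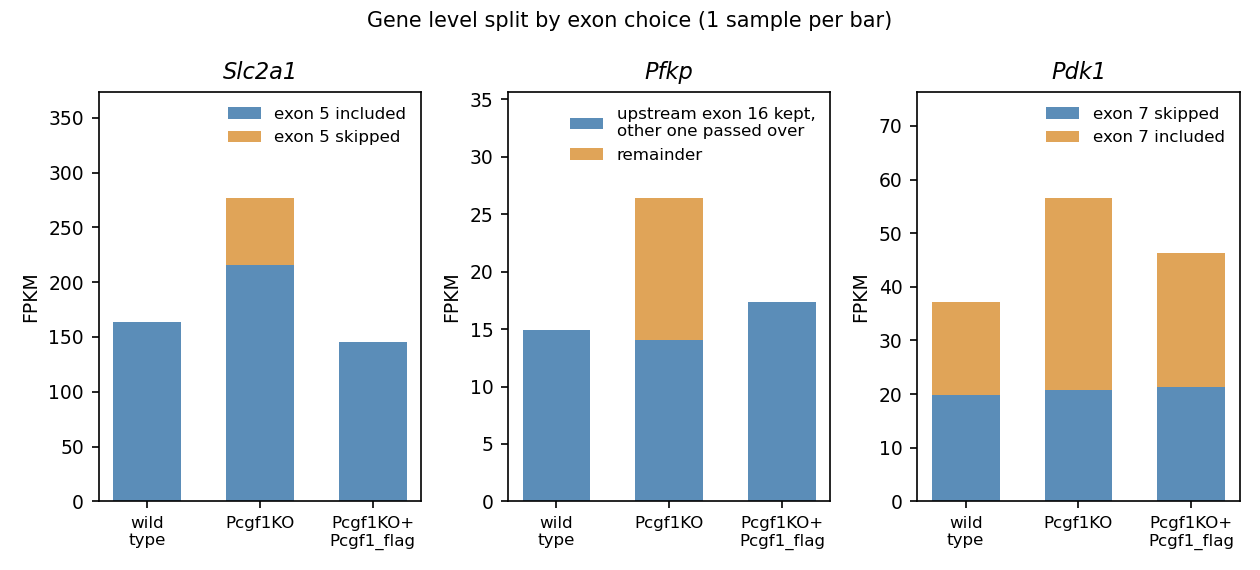
FPKM of Slc2a1, Pfkp and Pdk1 stacked by exon choice, 1 sample per bar. In Pfkp and Pdk1 the form drawn at the bottom is of similar height in all 3 samples and the part above it is highest in Pcgf1KO. In Pfkp this upper part is a remainder whose form was not determined. In Slc2a1 both forms are highest in Pcgf1KO, and the one without exon 5 is listed there alone.

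Promoter sequence was examined where RefSeq gives a start within 100 bases of the start of a first exon in use. RefSeq windows of 300 bases (GRCm38.p6, 250 before and 50 after the start) exist for 9 of the 10 members, and 6 of these genes, Slc2a1, Hk2, Pfkl, Pfkp, Ldha and Pdk1, met this limit. The distance was 121 bases or more for Hk1, 208 or more for Pkm and 244 or more for Eno1, which were left out. For these genes, the nearest Hk1 window held ACGTG 2 times and no GGGCGG. The nearest Pkm window held GGGCGG 1 time and no ACGTG, and the Eno1 windows held GGGCGG 0 or 3 times and no ACGTG. The 6 windows within the limit were rich in CpG, with 18 to 30 CpG each, against a median of 7 over 32851 windows. The Sp1 box GGGCGG, searched on both strands as were all motifs, was found in 6 of 6 windows and in 35.7% of all windows. GGGCGG itself holds a CpG, and the share over all windows is not matched for CpG. Of all windows, 26.5% held 20 or more CpG. ACGTG, the core of the hypoxia response element, was found in 3, once in Slc2a1, 2 times in Hk2 and 5 times in Ldha, and in 19.6% of all windows. The E-box CACGTG, which contains ACGTG, was found in Ldha alone, 2 times, and in 7.15% of all windows. TATAAA was found in Slc2a1 alone, and in 13.6% of all windows. Of the 3 genes past 1.5-fold in Pcgf1-/-, Pfkp and Pdk1 had no ACGTG in this window. The 250 bases before the RefSeq start of these 3 genes are shown with GGGCGG, or CCGCCC on the other strand, in capitals, since it is the one motif they share. They are chr4:119108495-119108744 for Slc2a1 (plus strand), chr13:6648772-6649021 for Pfkp (minus strand) and chr2:71872974-71873223 for Pdk1 (plus strand).
Slc2a1 upstream: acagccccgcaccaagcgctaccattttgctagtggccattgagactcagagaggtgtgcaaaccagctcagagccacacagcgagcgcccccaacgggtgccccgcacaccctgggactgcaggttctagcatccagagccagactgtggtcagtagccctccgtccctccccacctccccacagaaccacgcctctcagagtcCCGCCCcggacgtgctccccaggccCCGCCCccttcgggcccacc
Pfkp upstream: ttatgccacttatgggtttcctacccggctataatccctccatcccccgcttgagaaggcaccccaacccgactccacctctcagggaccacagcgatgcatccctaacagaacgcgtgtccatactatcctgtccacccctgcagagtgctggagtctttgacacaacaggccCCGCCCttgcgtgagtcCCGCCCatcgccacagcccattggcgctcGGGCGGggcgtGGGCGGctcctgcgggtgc
Pdk1 upstream: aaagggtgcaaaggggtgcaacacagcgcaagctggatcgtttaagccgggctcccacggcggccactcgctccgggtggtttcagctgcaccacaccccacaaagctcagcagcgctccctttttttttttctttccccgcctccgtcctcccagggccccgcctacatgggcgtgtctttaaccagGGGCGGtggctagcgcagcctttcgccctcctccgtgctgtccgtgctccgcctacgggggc

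The rest of glycolysis was read from 20 further enzymes, of which 17 stood alone in the lists and 15 were above 0. Between Pcgf1-/- and WT, 3 of these 15 were higher and 12 lower, with a median log2 ratio of -0.29 (6 higher, 9 lower and -0.18 under median-of-ratios scaling). The members' median had the other sign. None was past 1.5-fold higher, 2 were past 1.5-fold lower, and 1 of these, Pgam2, was past 2-fold. Over all genes above 0, 19.3% were past 1.5-fold lower and 9.41% past 2-fold lower. The most abundant were Gapdh, at 4768 FPKM in WT, 4666 in Pcgf1-/- cells and 3763 in Pcgf1-/-+Pcgf1, and Pgam1, the main phosphoglycerate mutase, at 566, 570.5 and 482 FPKM. Pgam2, the muscle form, was at 3.02, 1.19 and 3.19 FPKM. Pklr, the liver and red cell pyruvate kinase, and Ldhc, the testis lactate dehydrogenase, were at or below 0.446 FPKM in WT and Pcgf1-/- and at 1.06 and 2.17 FPKM in Pcgf1-/-+Pcgf1. Aldoa, whose name was joined with that of Gm15676 in WT, was at 1386, 1250 and 1157 FPKM.

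Of 8 other hexose transporters, 6 were above 0 and none exceeded 13.7 FPKM in any sample. In Pcgf1-/- against WT, 3 were higher and 3 lower, and 2 of 6, Slc2a4 and Slc2a8, were past 1.5-fold lower, where 19.3% of all genes above 0 were. Slc2a4 was also past 2-fold lower. Their summed level was 18.4 FPKM in WT, 11.3 in Pcgf1-/- cells and 11.1 in Pcgf1-/-+Pcgf1, and 3 of 6 were past 1.5-fold lower in Pcgf1-/-+Pcgf1 than in WT (11.7% of all genes above 0). The insulin-responsive transporter Slc2a4 was at 2.02 FPKM in WT, 0.535 in Pcgf1-/- cells and 0.996 in Pcgf1-/-+Pcgf1, Slc2a8 at 13.7, 7.78 and 7.88, and the fructose transporter Slc2a5 at 1.48, 1.75 and 0.890. Of 6 lactate and pyruvate transporters, 5 were higher in Pcgf1-/- than in WT, with a median log2 ratio of 0.13, none past 1.5-fold higher. The lactate exporter Slc16a3 was at 180.4 FPKM in WT, 209.9 in Pcgf1-/- cells and 133 in Pcgf1-/-+Pcgf1, and Bsg, its chaperone, at 349, 382 and 295 FPKM. The 1 that was lower, Slc16a7, was at 0.251 FPKM in WT, listed at 0 in Pcgf1-/- and at 0.109 FPKM in Pcgf1-/-+Pcgf1, past 2-fold lower in Pcgf1-/- on the scale of FPKM + 0.1.

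Among the genes listed for the pyruvate dehydrogenase complex, the pentose phosphate pathway and the TCA cycle, Taldo1 alone was past 1.5-fold higher in Pcgf1-/- than in WT. Over the 6720 genes at 5 FPKM or more in 1 or both samples, 5.71% were. The 10 other genes of the pyruvate dehydrogenase complex, its kinases and phosphatases had a median log2 ratio of -0.04 in Pcgf1-/- (0.07 under median-of-ratios scaling). None was past 1.5-fold higher and 2 were past 1.5-fold lower, Pdk2 and Pdp1, of which Pdp1 was past 2-fold. Over all genes above 0, 19.3% were past 1.5-fold lower and 9.41% past 2-fold lower. Pdk2, a second kinase, was at 4.34 FPKM in WT, 2.43 in Pcgf1-/- cells and 2.06 in Pcgf1-/-+Pcgf1, and the phosphatase Pdp1 at 2.19, 0.683 and 1.73 FPKM. The E1 subunit genes Pdha1 and Pdhb were at 136 and 127 FPKM in WT and at 110.0 and 135 in Pcgf1-/-. Among 6 enzymes of the pentose phosphate pathway, Taldo1 (transaldolase) was at 164, 265 and 144 FPKM, and Pgd at 180.03, 215 and 136 FPKM, in WT, Pcgf1-/- and Pcgf1-/-+Pcgf1 cells. The median log2 ratio was 0.07. All 13 TCA cycle genes were within 1.5-fold in each comparison, among them Mdh2 at 285, 292 and 287 FPKM and Cs at 138, 111 and 109 FPKM. Tigar and Pfkfb1, which set the level of fructose 2,6-bisphosphate, were at 16.6 and 9.32 FPKM in WT and at 12.9 and 5.50 in Pcgf1-/-, and 4 of 4 genes of their list were lower in Pcgf1-/- (3 of 4 under median-of-ratios scaling). The median log2 ratio of all genes above 0 was itself -0.12. In gluconeogenesis, Pck2 was at 34.7, 36.1 and 59.4 FPKM, G6pc3 at 24.6, 22.6 and 20.8, and Fbp2 at 1.48, 2.59 and 4.80.

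Genes of the hypoxia response outside glycolysis were set beside the members because many members belong to that response. Of 17, 11 were higher and 6 lower in Pcgf1-/- than in WT (13 and 4 under median-of-ratios scaling), with a median log2 ratio of 0.13. Of these, 2 were past 1.5-fold higher and 1 past 1.5-fold lower. Over the 6720 genes at 5 FPKM or more in 1 or both samples, 5.71% were past 1.5-fold higher and 9.17% past 1.5-fold lower. Epas1, which encodes the factor HIF-2 alpha, was at 12.04 FPKM in WT, 30.5 in Pcgf1-/- cells and 12.7 in Pcgf1-/-+Pcgf1, the one gene of the list past 2-fold in Pcgf1-/- (log2 ratio 1.33). Hif1a was at 23.1, 23.4 and 26.1 FPKM. The mitophagy gene Bnip3 was at 55.4, 60.7 and 37.9 FPKM, the stress gene Ddit4 at 58.0, 44.4 and 49.9, and the oxidoreductase gene Ero1l at 20.5, 27.5 and 12.8. Adm was at 3.47, 4.30 and 2.06 FPKM, Mxi1 at 9.56, 5.81 and 4.07, and Car9 at 0.856 FPKM or less in every sample. In Pcgf1-/-+Pcgf1 against Pcgf1-/-, 12 of the 17 were lower and 5 higher, with a median log2 ratio of -0.24. The median was -0.05 over the 5875 genes at 5 FPKM or more in every sample and 0.05 over all genes above 0.

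**Figure D5:**
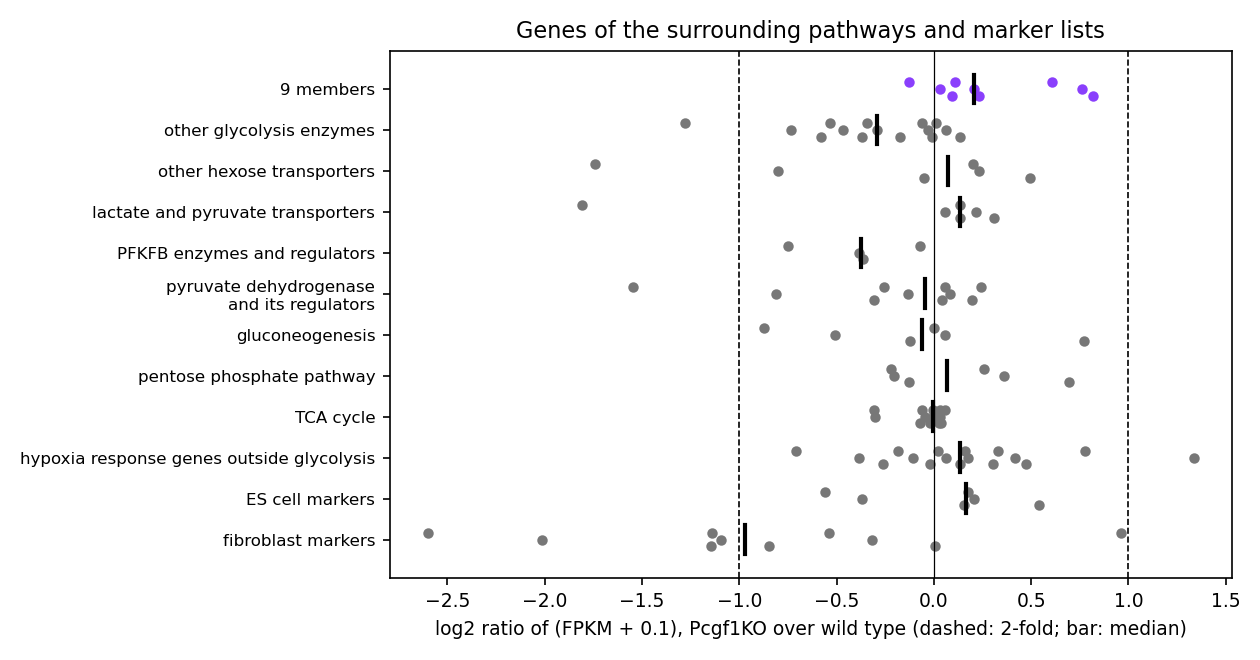
Log2 ratio of (FPKM + 0.1) of Pcgf1KO over wild type for the 9 members and for each gene above 0 in the lists around them, with 1 point per gene, a bar at each median and dashed lines at 2-fold. The members' median (0.21) lies above that of the other glycolysis enzymes (-0.29), TCA cycle genes lie close to 0, and the fibroblast markers lie lowest (median -0.97).

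The housekeeping genes Actb and Hprt were both lower in Pcgf1-/- than in WT, by log2 ratios of -0.19 and -0.21, and lower again in Pcgf1-/-+Pcgf1. Of the ES cell markers, Utf1 was at 600.2 FPKM in WT, 678 in Pcgf1-/- cells and 464 in Pcgf1-/-+Pcgf1, and Nanog at 68.2, 46.3 and 123 FPKM. Over the 6 markers with a name of their own, 4 were higher and 2 lower in Pcgf1-/- than in WT. Their median log2 ratio was 0.16. Low values in the files rise in steps, and with 1 fragment assumed per step the lowest member, Hk1, rested on about 1041 fragments in WT, 1304 in Pcgf1-/- cells and 1044 in Pcgf1-/-+Pcgf1. Counting error alone would then be about 3.10% of its value in WT. These estimates leave out the spread between cultures, which these data cannot give.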

How the data were processed

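Poly(A) RNA was sequenced from 1 sample per group. Each deposited file lists transcript events (first exon, last exon, skipped exon) of 1 sample and gives an FPKM, computed by the authors, per event and no counts. The submitters' processing notes name TopHat2 2.0.12, Cufflinks 2.2.1, HTSeq 0.6.0 and mm10, and which program wrote the lists is not given in the sources used here. The library kit as described does not mark strand, so overlapping antisense transcripts are not separated by it. A gene's level was the larger of its summed first-exon and last-exon FPKM. Genes with joined, missing or date-like names were set aside. Ratios of FPKM + 0.1 were called past 2-fold, with 1.5-fold as a description, without a test. Depth is not stated, and it was estimated from the steps of low values in genes with 1 GENCODE vM21 transcript over 2000 bases. Positions are those of the files (mm10) and of GENCODE vM21 (GRCm38), exon sequences are from GENCODE transcripts, and promoters are from RefSeq (GRCm38.p6). The arithmetic of the calling was checked on copies of the WT list with planted differences beyond 2-fold and no noise. This check says nothing about error rates. The members and lists were chosen with earlier results of these data known. All 10 members are named, and of every other list the genes past 2-fold in any comparison and the 2 with the highest mean FPKM. Of these, 1 gene and 1 exon sequence are not reported here. Aldoa, Hif1a and the transcript forms were chosen after their values were seen. Alternatives were 2 other pseudocounts, median-of-ratios scaling, first or last exons alone, a filter of 5 FPKM and, added later, the Slc2a3 locus counted in. Python 3.11.15, numpy 2.4.6, pandas 2.3.3 and matplotlib 3.10.9 were used.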

Additional observations from a re-analysis of the deposited data

Results flagged for a closer look

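Each value here is an event of a member that was above 1 FPKM in one of the other samples and listed at 0, or not listed, in WT, which stands as the control sample. In Pcgf1-/- this was the skipping of exon 5 of Slc2a1, at 61.0 FPKM. In Pcgf1-/-+Pcgf1 it was the first exon upstream of the annotated start of Slc2a1, at 66.3 FPKM, the first exon upstream of the annotated start of Pdk1, at 15.5 FPKM, and a last exon of Pfkl, at 86.7 FPKM. Each was seen in 1 sample, and none has a replicate check. The part of transcript assembly, done in each library on its own, was not tested.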

How the results depend on the processing

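No member passed 2-fold in any comparison under any of the 5 other settings or with the Slc2a3 locus counted in, a setting chosen after seeing the data; listed lengths, given with Slc2a1 and Pdk1, were not among these settings. Under median-of-ratios scaling the members' median log2 ratio between Pcgf1-/- and WT came to 0.32 in place of 0.21, since WT was scaled down (factor 1.05) and Pcgf1-/- up (0.970), a shift of 0.11 in every gene. With last exons alone it was 0.093 over 7 members, as Hk2 and Pfkl were listed at 0, and the Pdk1 ratio turned to -0.16, which left 2 members past 1.5-fold higher in place of 3. The Pdk1 ratio of Pcgf1-/-+Pcgf1 to Pcgf1-/- turned too, from -0.29 to 0.48. With a pseudocount of 1 FPKM, 1 member in place of 2 was past 1.5-fold lower in Pcgf1-/-+Pcgf1 than in Pcgf1-/-, because Pfkp no longer passed. Of 156 ratios of single members under an alternative, 145 moved by 0.1 or less, among them 3 that crossed 0 under median-of-ratios scaling, and the other 11 moved further, among them both Pdk1 ratios that turned. The share of all genes past 2-fold in Pcgf1-/- against WT was 4.9% with the filter of 5 FPKM and 3.38% with a pseudocount of 1 FPKM, against 13.5%. The same settings gave 6.26% and 4.27%, against 15.9%, for Pcgf1-/-+Pcgf1 against Pcgf1-/-, and 3.4% and 2.38%, against 11.6%, for Pcgf1-/-+Pcgf1 against WT. No paired analysis was possible because each group has 1 sample, and for the same reason no replicate could be left out.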
